A study of Mus musculus with 9 samples.

Results

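The 10 genes described here code for proteins that switch mitogen-activated protein kinase (MAPK) signaling off again. They are 8 dual-specificity phosphatases (Dusp1, Dusp2, Dusp3, Dusp4, Dusp5, Dusp6, Dusp10 and Dusp16), the Sprouty protein Spry2 and the Sprouty-related protein Spred1. They were taken by symbol from a table of 55401 mouse genes, and all 10 were found. All 10 also had a mean TPM of at least 1, which 12819 genes of the table reached.

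MAPKs such as ERK, JNK and p38 become active when a threonine and a tyrosine in their activation loop are phosphorylated, and in macrophages lipopolysaccharide (LPS) triggers this through Toll-like receptor 4. Dual-specificity phosphatases remove both phosphates, and many of their genes are themselves induced by MAPK signaling, which makes them feedback inhibitors. Sprouty and Spred proteins act further upstream and restrain the route from Ras to ERK.

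RNA was sequenced from RAW264.7 cells, a macrophage line from a male mouse tumor induced by Abelson murine leukemia virus, labelled as wild type. The cells received the solvent DMSO, DMSO with the bacterial wall component LPS (LPS), or LPS with the indole compound skatole (LPS + Ska). Each group had 3 samples, numbered 5, 6 and 7. No group received skatole alone, so its effect without LPS was not tested. Treatment lasted 24 h by the labels but longer by the methods section, and the skatole concentration of these samples was not given in the sources used here. All groups come from a single cell line, and nothing states that the samples of a group were separate cultures, so p-values measure the spread between these samples, which may be technical.

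The values are TPM, the share of a transcript in a sample corrected for its length, and they keep no sequencing depth. Columns summed to between 999895 and 1000145 TPM, and 12498 to 13012 genes per column reached a TPM of 1. With LPS and with LPS + Ska, the column of replicate 5 was the average of the other 2 in 100% of the genes in which those were above 0 (17950 and 17658 genes, within 1e-05 TPM), compared with 0.06% of 16674 genes in DMSO. An SD over these 3 columns therefore rests on at most 2 independent values, and n counts columns. The main fit below treats all 3 as separate, so its SEs, confidence intervals and p-values share this limit. Leaving out any of these tied columns removes no independent value, so such fits below cannot show dependence on a sample. Of 9 macrophage markers, Mertk was at 0 in every column, and the other 8 summed to 12000 to 13000 TPM in DMSO, 7130 to 7550 with LPS and 13500 to 13700 with LPS + Ska, mostly from Lyz2. Their part in the results below was not tested. Of 15 markers of T cells, B cells, neutrophils, fibroblasts, epithelium and chondrocytes, 11 were at 0 in every column and all 15 together reached at most 0.672 TPM. All 8 inflammatory genes used as a check of the LPS treatment (Il1b, Il6, Tnf, Nos2, Ptgs2, Cxcl10, Ccl5 and Acod1) rose with LPS.

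LPS changed 8 of the 10 genes and turned them in opposite directions. Dusp5, Dusp6, Dusp2, Spry2, Dusp16 and Spred1 rose 1.60- to 3.66-fold, whereas Dusp1 fell to 0.197 and Dusp3 to 0.479 of the DMSO level. Skatole added to LPS changed Dusp1 alone, which was 1.74-fold higher than with LPS and at 0.343 of its DMSO level. A gene was called changed when limma on log2(TPM + 1) gave a Benjamini-Hochberg adjusted p below 0.05 over the 12819 genes together with a fold change above 1.5 or below 0.67. Fold changes are on this log2(TPM + 1) scale, which understates the change of low genes. By this rule 6 of the 10 genes were higher and 2 lower in LPS than in DMSO, against 12.7% and 20.0% of all genes tested (32.7% in either direction). The adjusted p alone was passed by the same 8 genes and by 60.3% of all genes tested. In LPS + Ska compared with LPS, 1 gene was higher and 0 lower, against 3.35% and 6.14% of all genes tested (9.49% in either direction). Median-ratio scaling turned the 429 higher and 787 lower genes of this comparison into 595 and 540. Without the fold limits, an adjusted p below 0.05 was reached by 5 of the 10 genes in that comparison (28.6% of all genes tested), namely Dusp1 and Dusp6 upward and Dusp2, Dusp16 and Spred1 downward. Only Dusp1 kept this under every alternative setting described at the end (highest adjusted p = 0.019). The highest adjusted p was 0.13 for Dusp6, 0.13 for Dusp2, 0.11 for Dusp16 and 0.082 for Spred1. In bulk RNA, fewer cells with a transcript and less transcript per cell cannot be told apart.

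**Figure D1:**
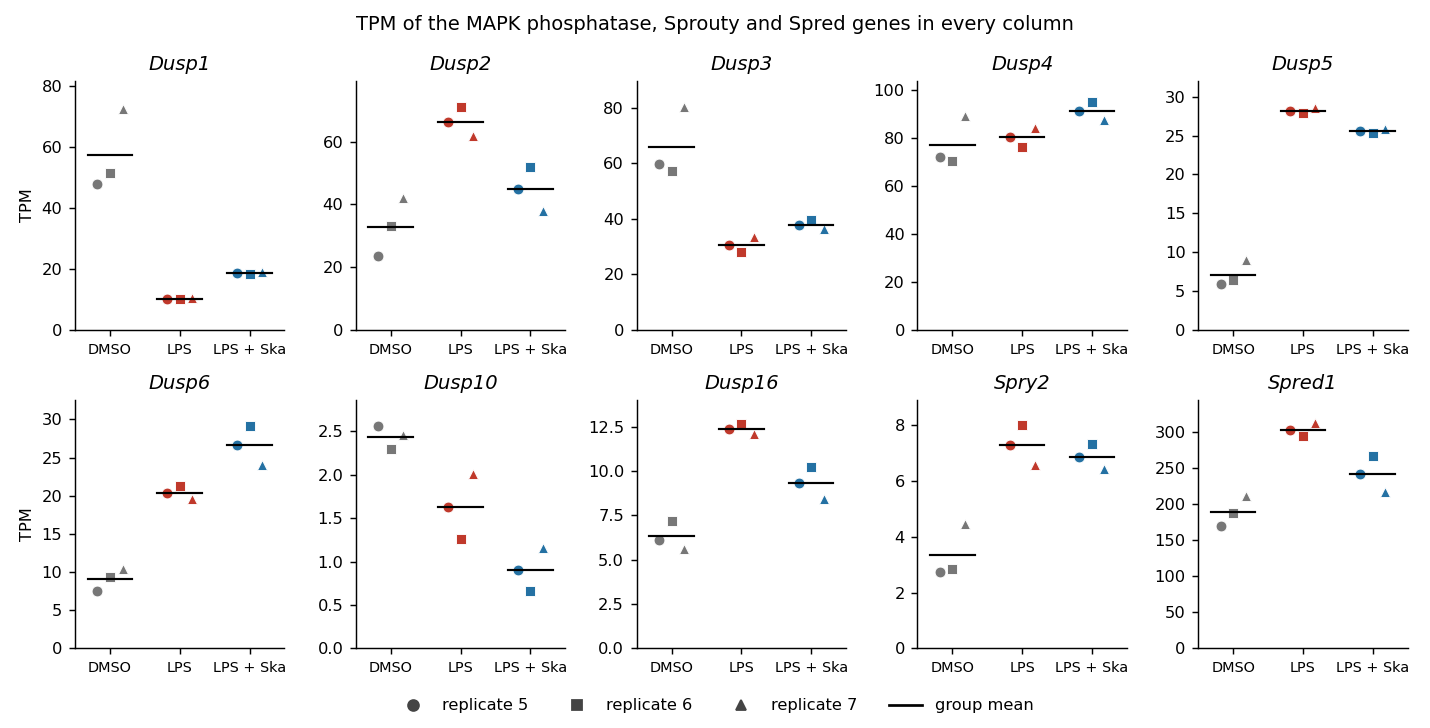
TPM of each of the 10 genes (vertical axes, linear and starting at 0) in the 9 columns, grouped as DMSO, LPS and LPS + Ska, with symbols for the replicate number and a line at the group mean. Dusp1 drops from between 47.8 and 72.3 TPM in DMSO to between 10.1 and 10.5 with LPS, whereas Dusp5 climbs from at most 8.94 to at least 27.9 TPM.

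Dusp1 (ENSMUSG00000024190) is the classical immediate early phosphatase of the nucleus and acts on p38 and JNK more than on ERK. In the annotation of GRCm38, the same build as mm10, the protein-coding gene lies on chromosome 17 from 26505590 to 26562128 on the minus strand. Its TPM were 47.8, 51.2 and 72.3 in DMSO, 10.3, 10.1 and 10.5 with LPS, and 18.6, 18.4 and 18.8 with LPS + Ska. No column of a group overlapped with a column of another, and the order was DMSO, LPS + Ska, LPS. The means were 57.1 ± 13.3 TPM (SD, n = 3), then 10.3 ± 0.20 with LPS (SD, n = 3 columns) and 18.6 ± 0.213 TPM for LPS + Ska (SD, n = 3 columns). The log2 fold change with LPS was -2.34 (standard error, SE, 0.13, adjusted p = 9.4e-07). LPS + Ska was higher than LPS by 0.80 (SE 0.13, adjusted p = 0.0027). With LPS + Ska, Dusp1 thus lay between LPS and DMSO, and it differed from DMSO by -1.54 (adjusted p = 9.5e-06).

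Dusp5 (ENSMUSG00000034765, chromosome 19 from 53529109 to 53542431, plus strand) codes for a nuclear phosphatase that is specific for ERK. Its TPM were 5.86, 6.48 and 8.94 in DMSO, 28.2, 27.9 and 28.5 with LPS, and 25.6, 25.3 and 25.8 with LPS + Ska. Every column with LPS lay above every DMSO column, and the LPS + Ska columns lay just under those with LPS. Its rise with LPS, 1.87 on the log2 scale and the largest of the 10 genes, passed the test (SE 0.12, adjusted p = 2.3e-06). LPS + Ska differed from LPS by -0.14 (95% confidence interval -0.41 to 0.14, adjusted p = 0.44), and Dusp5 remained 3.33-fold above DMSO (adjusted p = 3.0e-06).

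The upstream sequences of Dusp1 and Dusp5 are shown because these 2 genes moved furthest in opposite directions with LPS. They are the 250 bases before the RefSeq start, 5′ to 3′ on the strand of the gene, with capitals for matches to the motifs named in the next paragraph. For Dusp1 this start lies inside the gene span given above and not at its 5′ end, so the annotations differ.
Dusp1, chr17:26508473-26508722, minus strand: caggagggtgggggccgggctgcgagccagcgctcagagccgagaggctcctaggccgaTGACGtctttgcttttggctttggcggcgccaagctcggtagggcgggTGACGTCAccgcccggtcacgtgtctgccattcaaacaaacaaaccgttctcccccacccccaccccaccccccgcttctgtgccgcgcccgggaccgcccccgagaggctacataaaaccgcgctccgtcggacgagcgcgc
Dusp5, chr19:53528895-53529144, plus strand: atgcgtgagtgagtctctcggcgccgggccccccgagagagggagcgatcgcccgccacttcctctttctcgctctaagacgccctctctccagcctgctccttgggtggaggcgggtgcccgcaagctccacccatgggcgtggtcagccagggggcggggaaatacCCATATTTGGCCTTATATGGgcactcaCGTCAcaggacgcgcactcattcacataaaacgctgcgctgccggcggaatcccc

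RefSeq windows on GRCm38.p6, of 250 bases before to 50 after the start, were found for 9 of the 10 genes, all but Dusp4. As with Dusp1, the windows of Dusp3 and Dusp10 lie inside the gene spans given in this text and not at their 5′ ends. They were searched on both strands for the cAMP response element (CRE) TGACGTCA, its core TGACG, the AP-1 site TGANTCA, the CArG box bound by serum response factor, the NF-kB site, the ETS core CCGGAA and the TATA box TATAAA. Of the 9 windows, that of Dusp1 alone held a full CRE, which starts 143 bases before the start site and contains the core on both strands, and 1.79% of 32851 windows in the genome held one. The Dusp5 window alone held CArG boxes, 2 of them side by side from 82 to 63 bases before the start, and 1.63% of all windows held at least 1. The CRE core occurred in 20.8% of all windows and here in those of Dusp1, Dusp2, Dusp5 and Dusp16, and the ETS core, in 14.9% of all windows, occurred in that of Spry2. The windows of Dusp3, Dusp6, Dusp10 and Spred1 held none of these letters, and no window held the AP-1 site, the NF-kB site or the TATA box, which were present in 7.81%, 8.46% and 13.6% of all windows. These matches describe letters and not binding.

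Dusp2 (ENSMUSG00000027368, chromosome 2 from 127336159 to 127338376, plus strand), a nuclear phosphatase of hematopoietic cells, is strongly induced when these cells are activated. It had 23.6, 33.1 and 42.0 TPM in DMSO, 66.4, 71.1 and 61.8 with LPS, and 44.9, 51.9 and 38.0 with LPS + Ska. The LPS columns were the highest, and the LPS + Ska columns fell between the groups and overlapped with DMSO. LPS raised Dusp2 by 1.03 on the log2 scale (SE 0.18, adjusted p = 0.0011). LPS + Ska differed from LPS by -0.56 (95% confidence interval -0.98 to -0.15, adjusted p = 0.048), or 0.677 of the LPS level, which is inside the fold limit of 0.67. It was called when the LPS + Ska column of replicate 6, the highest of its group, was left out, at -0.67 (adjusted p = 0.031). As these columns are tied, that fit shifts the group mean and removes no independent value. LPS + Ska compared with DMSO gave 0.46 (adjusted p = 0.051). That value reached 0.65 and was called after median-ratio scaling of the columns (adjusted p = 0.0085) or without DMSO replicate 7 (adjusted p = 0.0094).

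Dusp4 (ENSMUSG00000031530, chromosome 8 from 34807297 to 34819894, plus strand), another inducible nuclear phosphatase, had the highest TPM of the 8 phosphatase genes in every group. It had 72.1, 70.4 and 89.3 TPM in DMSO, 80.3, 76.4 and 84.3 with LPS, and 91.2, 95.0 and 87.5 with LPS + Ska. DMSO replicate 7 lay above every LPS column, so DMSO and LPS overlapped. LPS compared with DMSO gave a log2 fold change of 0.06 (95% confidence interval -0.14 to 0.27, adjusted p = 0.57), and LPS + Ska compared with LPS gave 0.18 (-0.02 to 0.38, adjusted p = 0.16). A change of 1.5-fold lies outside both intervals, which treat the tied columns as separate values. Over the alternative settings described at the end, the 1st value ranged from 0.0 to 0.17 and the 2nd from 0.15 to 0.28.

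Dusp6 (ENSMUSG00000019960, chromosome 10 from 99263231 to 99267489, plus strand) codes for the cytoplasmic phosphatase that is specific for ERK and is widely used as a readout of ERK activity. It had 7.47, 9.40 and 10.4 TPM in DMSO, 20.4, 21.2 and 19.6 with LPS, and 26.6, 29.1 and 24.1 with LPS + Ska. The groups did not overlap and stood in the order DMSO, LPS, LPS + Ska. LPS raised Dusp6 by 1.10 on the log2 scale (SE 0.12, adjusted p = 4.4e-05). The further difference with skatole was 0.36 (SE 0.12, adjusted p = 0.044), or 1.29-fold, under the fold limit. LPS + Ska stood 2.75-fold above DMSO (adjusted p = 6.1e-06).

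Dusp16 and Dusp10, like Dusp1, prefer the stress kinases JNK and p38. With LPS, Dusp16 rose and Dusp10 did not pass the test, whereas Dusp1 fell. Dusp16 (ENSMUSG00000030203, chromosome 6 from 134715468 to 134792625, minus strand) had 6.12, 7.19 and 5.63 TPM in DMSO, 12.3, 12.6 and 12.1 with LPS, and 9.32, 10.2 and 8.41 with LPS + Ska. Its 3 groups did not overlap, with LPS + Ska in the middle. The log2 fold change was 0.87 for LPS compared with DMSO (SE 0.11, adjusted p = 0.00011). It was -0.37 for LPS + Ska compared with LPS (SE 0.11, adjusted p = 0.030), or 0.771 of the LPS level, and 0.50 for LPS + Ska compared with DMSO (adjusted p = 0.0028). The last value was past the fold limit, at 0.67, after median-ratio scaling (adjusted p = 0.00039).

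Dusp10 (ENSMUSG00000039384, chromosome 1 from 184013302 to 184075636, plus strand) had the lowest TPM of the 10 genes in every group. It had 2.56, 2.30 and 2.46 TPM in DMSO, 1.63, 1.26 and 2.01 with LPS, and 0.905, 0.657 and 1.15 with LPS + Ska. The groups did not overlap and stood in the order DMSO, LPS, LPS + Ska. The change was -0.39 from DMSO to LPS (95% confidence interval -0.76 to -0.03, adjusted p = 0.061) and -0.47 from LPS to LPS + Ska (-0.83 to -0.10, adjusted p = 0.059). LPS + Ska was lower than DMSO, at -0.86 (SE 0.16, adjusted p = 0.0013). The log2(TPM + 1) scale understates changes at such low TPM. Over 18 alternatives the change from LPS to LPS + Ska ranged from -0.79 to -0.37. That from DMSO to LPS + Ska ranged from -1.36 to -0.74, and neither call changed.

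Dusp3 (ENSMUSG00000003518, chromosome 11 from 101971143 to 101987013, minus strand) codes for a small atypical phosphatase without the kinase-docking domain of the others, which acts on ERK and JNK. It had 59.8, 57.4 and 80.4 TPM in DMSO, 30.8, 28.2 and 33.3 with LPS, and 37.8, 39.5 and 36.2 with LPS + Ska. As with Dusp1, the order was DMSO, LPS + Ska, LPS with no overlap. With LPS, Dusp3 changed by -1.06 on the log2 scale (SE 0.12, adjusted p = 6.8e-05). LPS + Ska compared with LPS gave 0.29 (95% confidence interval 0.02 to 0.57, adjusted p = 0.10). Compared with DMSO, LPS + Ska was lower by -0.77 (adjusted p = 0.00044), and median-ratio scaling took it to the inner side of the fold limit, at -0.58 (adjusted p = 0.0014).

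Spry2 (ENSMUSG00000022114, chromosome 14 from 105891947 to 105896819, minus strand) was low in every group, with 2.74, 2.83 and 4.45 TPM in DMSO, 7.27, 7.98 and 6.55 with LPS, and 6.85, 7.30 and 6.41 with LPS + Ska. The LPS and LPS + Ska columns overlapped and both lay above DMSO. LPS raised Spry2 by 0.95 on the log2 scale (SE 0.16, adjusted p = 0.0006). LPS + Ska differed from LPS by -0.07 (95% confidence interval -0.42 to 0.28, adjusted p = 0.76), a sign that median-ratio scaling turned (0.02), and it remained above DMSO by 0.88 (adjusted p = 0.00087).

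Spred1 (ENSMUSG00000027351, chromosome 2 from 117121374 to 117182279, plus strand) codes for the protein that brings the Ras inhibitor neurofibromin to the membrane, and it had the highest TPM of the 10 genes in every group. The values were 170.0, 188 and 211 TPM in DMSO, 304, 295 and 313 with LPS, and 243, 268 and 218 with LPS + Ska. The groups did not overlap, with LPS + Ska in the middle. LPS raised Spred1 by 0.68 on the log2 scale (SE 0.09, adjusted p = 0.00019). LPS + Ska was at 0.797 of the LPS level, or -0.33 in log2 (SE 0.09, adjusted p = 0.027), and 0.35 above DMSO (adjusted p = 0.0077), both inside the fold limits.

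**Figure D2:**
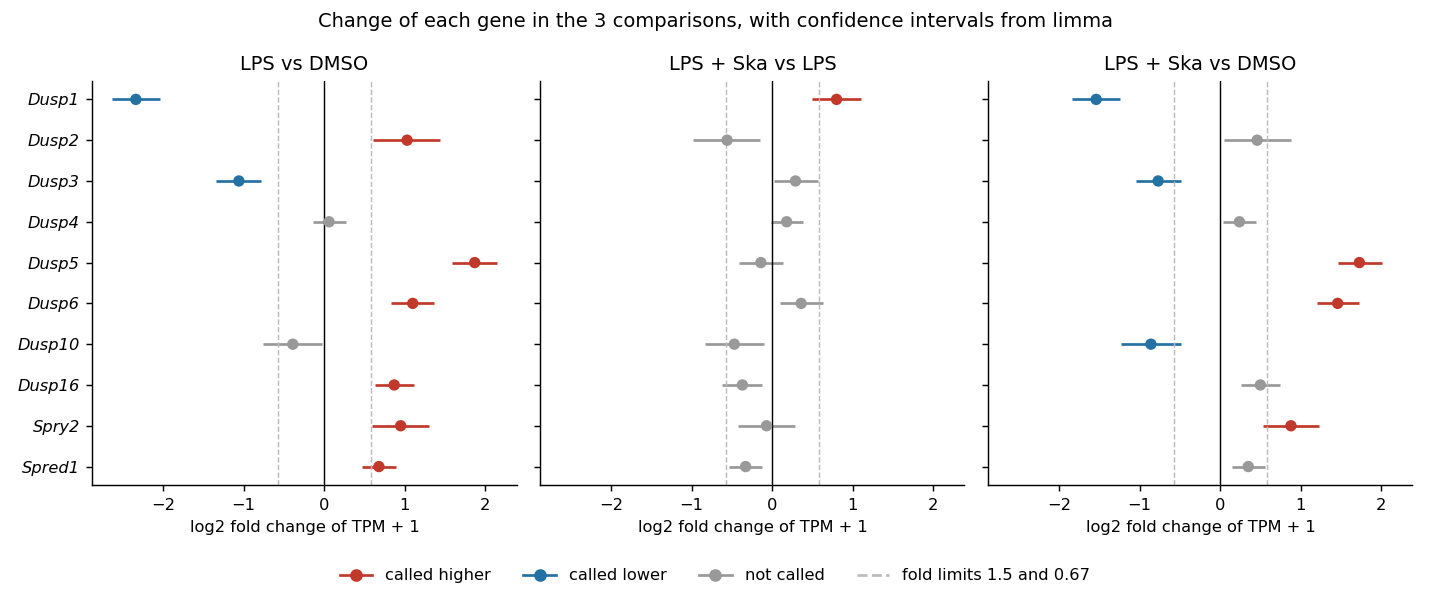
Log2 fold change of TPM + 1 (horizontal axes) of the 10 genes in the 3 comparisons, with 95% confidence intervals from limma and dashed lines at the fold limits. In LPS + Ska compared with LPS the point of Dusp1, at 0.80, is the only one called, and in LPS + Ska compared with DMSO the points of Dusp5 and Dusp6 stay at 1.73 and 1.46.

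Compared with DMSO, 3 of the 10 genes were called higher in LPS + Ska (Dusp5, Dusp6 and Spry2) and 3 lower (Dusp1, Dusp3 and Dusp10, the last of which was not called with LPS), against 11.4% and 25.3% of all genes tested (36.7% in either direction). The shares over all genes depend on the scaling, since the 1457 higher and 3243 lower genes became 2212 and 2246 after median-ratio scaling. None of the 10 genes changed sign in this comparison under that scaling. There, Dusp3 went inside the fold limit, and Dusp2 and Dusp16 were called higher. The adjusted p alone was passed by 9 of the 10, all but Dusp2, and by 63.3% of all genes tested. The groups in this comparison and in the others share samples, so the 3 comparisons are not independent. The columns did not overlap in 9 of the 10 genes for LPS and DMSO, 9 for LPS + Ska and LPS, and 8 for LPS + Ska and DMSO. Of all genes tested, 68.9%, 51.2% and 64.8% did not overlap.

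DMSO replicate 7 was the highest DMSO column in 8 of the 10 genes, all but Dusp10 and Dusp16, against 45.2% of all genes tested. Whether it was handled differently was not tested. Without it, all calls of the 10 genes were kept, and Dusp2 was added in LPS + Ska compared with DMSO.

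The summed TPM of the 8 phosphatase genes differed little between groups, while its composition changed. The sum was 225, 237 and 311 TPM in DMSO, 249 to 252 TPM with LPS, and 240 to 270 TPM with LPS + Ska, so that the groups overlapped. Dusp1 took 21.2% to 23.2% of the sum in DMSO, 4.05% to 4.16% with LPS and 6.82% to 7.85% with LPS + Ska. Dusp3 took 24.2% to 26.5%, 11.3% to 13.2% and 14.6% to 15.1%. The shares of these genes were lower with LPS in every column. Dusp5 and Dusp6, both directed at ERK, went the other way. So did Dusp16, which prefers JNK and p38. Its share was 1.81% to 3.03% in DMSO, 4.79% to 5.08% with LPS and 3.51% to 3.79% with LPS + Ska. Dusp10 took at most 1.14% in any column. Dusp5 took 2.60% to 2.87% in DMSO, 11.2% to 11.3% with LPS and 9.37% to 10.8% with LPS + Ska, and Dusp6 took 3.32% to 3.96%, 7.76% to 8.53% and 10.0% to 10.8%. Dusp2 took the largest share after Dusp4 with LPS, at 24.5% to 28.6%, compared with 10.5% to 13.9% in DMSO and 15.8% to 19.2% with LPS + Ska. Dusp4 held the largest share in every column, from 28.7% to 36.5%. These shares are a description with no test.

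**Figure D3:**
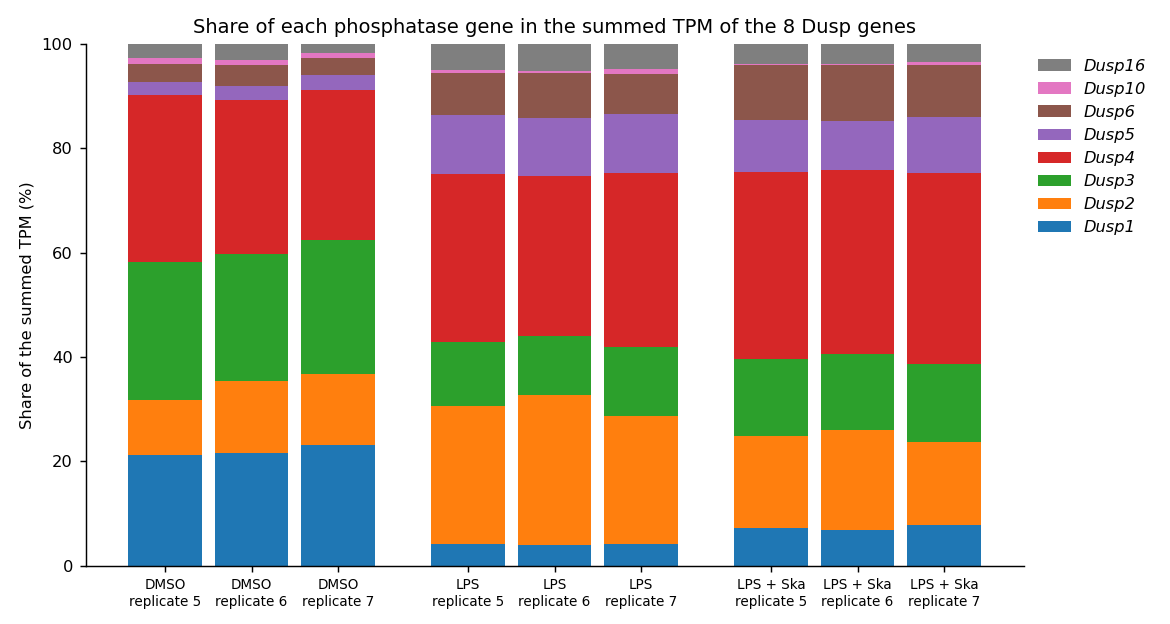
Share of each phosphatase gene in the summed TPM of the 8 Dusp genes (vertical axis, percent) in each of the 9 columns, as stacked bars. The Dusp1 segment shrinks from at least 21.2% in DMSO to at most 4.16% with LPS, and the Dusp5 and Dusp6 segments grow.

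By mean TPM, Spred1 and Dusp4 led in all 3 groups, and Spry2 and Dusp10 came last. In DMSO the next were Dusp3, Dusp1 and Dusp2. Dusp4 and Dusp3, Dusp3 and Dusp1, Dusp6 and Dusp5, and Dusp5 and Dusp16 were neighbors whose columns overlapped. With LPS, Dusp1 stood at place 8 of 10, and only Dusp3 and Dusp5 overlapped as neighbors. With LPS + Ska, Dusp1 stood at place 7, and Dusp2 and Dusp3 as well as Dusp6 and Dusp5 overlapped.

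Among the other members of these families, LPS raised Dusp19, Styx, Dusp14 and Spred3. Of 17 other genes of the dual-specificity phosphatase family, listed by family and not by enzyme activity, 9 had a mean TPM of at least 1. LPS raised 3 of these 9 (Dusp19, Styx and Dusp14, with log2 fold changes of 0.73, 0.72 and 0.62) and lowered 0. Of all genes tested, it raised 12.7% and lowered 20.0%. The call of Dusp14, at 0.75 to 3.15 TPM over all columns, was lost under 7 of 18 alternatives. These were no filter (adjusted p = 0.067), the compared groups alone (adjusted p = 0.057), the 2 recovered values in place of the tied columns (adjusted p = 0.060), and the fits without DMSO replicate 5 (0.41, adjusted p = 0.074) or 7 (0.63, adjusted p = 0.055) and without LPS replicate 5 (0.61, adjusted p = 0.077) or 7 (0.52, adjusted p = 0.097). Among the other Sprouty and Spred genes, Spry1 and Spry4 stayed at or under 0.166 TPM in every column. LPS raised Spred3 from 1.21 ± 0.433 TPM (SD, n = 3) to 5.79 ± 1.29 TPM (SD, n = 3 columns), which is 1.62 in log2 (SE 0.19, adjusted p = 7.8e-05), and Spred2 was not called. In LPS + Ska compared with LPS, 0 of these 11 other family genes were called, against 9.49% of all genes tested. Compared with DMSO, LPS + Ska had Dusp14 (1.59-fold) and Spred3 (2.43-fold) called higher and Dusp28 called lower (0.626-fold). Dusp14 lost this call without DMSO replicate 5 (0.46 in log2) or LPS + Ska replicate 5 (adjusted p = 0.054), and Dusp28 after median-ratio scaling (-0.50 in log2). Of 5 tested MAPK phosphatases outside the family, LPS raised Ptpn5, a tyrosine phosphatase that inactivates ERK and p38, from 1.33 ± 0.0968 TPM (SD, n = 3) to 13.8 ± 0.364 TPM (SD, n = 3 columns), which is 2.67 in log2 (SE 0.11, adjusted p = 1.8e-07). In the 3 LPS + Ska columns Ptpn5 had 13.1 ± 1.90 TPM, and none of these 5 genes was called against LPS.

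The genes of the kinase cascade changed in both directions with LPS. Of all genes tested, LPS raised 12.7% and lowered 20.0%, and LPS + Ska compared with LPS had 3.35% called higher and 6.14% lower. Of 8 tested MAP kinase genes, LPS raised Mapk11 and Mapk12 and lowered Mapk3, which codes for ERK1, and Mapk14, which codes for p38 alpha. Their log2 fold changes were 1.01, 0.83, -1.08 and -0.68. In LPS + Ska compared with LPS, Mapk11, which codes for p38 beta, was called lower. It went from 5.15 ± 1.19 TPM in DMSO (SD, n = 3) to 11.3 ± 1.73 in the 3 LPS columns and 6.45 ± 0.0205 in the 3 LPS + Ska columns. The step from LPS to LPS + Ska was -0.71 in log2 (SE 0.16, adjusted p = 0.0099). Mapk12, which codes for p38 gamma, had 3.06, 3.26 and 2.87 TPM with LPS and 1.57, 1.37 and 1.77 with LPS + Ska. These columns did not overlap, and the difference of -0.66 (95% confidence interval -1.17 to -0.16) just missed the threshold (adjusted p = 0.052). The count of MAP kinase genes called lower was 2 in place of 1 with the compared groups alone, with no intensity trend, without DMSO replicate 5 and without DMSO replicate 7. LPS lowered 1 of 6 MAP2 kinases (Map2k7) and 5 of 13 MAP3 kinases, led by Map3k6, Map3k11 and Map3k10 at -1.29, -1.07 and -1.02. It raised Braf by 1.02, and no MAP2 or MAP3 kinase was called between LPS + Ska and LPS. Of 11 Ras and adaptor genes, 4 rose with LPS and 1 fell, the largest change being that of Rasa1, a GTPase activator of Ras (1.48). Leaving out 1 column took several of these LPS changes inside the fold limits, namely Mapk12 (0.55 without DMSO replicate 5), Map2k7 (-0.57 without DMSO replicate 6), Map3k3 (-0.57 without DMSO replicate 7 and -0.56 without LPS replicate 6), Sos2 (0.58 without DMSO replicate 5), Shc1 (-0.54 without DMSO replicate 7 and -0.56 without LPS replicate 6) and Gab2 (0.52 without DMSO replicate 6 and 0.58 without LPS replicate 6). As the LPS columns are tied, the fits without LPS replicate 6 shift the group mean and remove no independent value. Median-ratio scaling also took Map2k7, Map3k3 and Shc1 inside the fold limits. TPM rescaled without mitochondrial and ribosomal protein genes did so for Map3k3 and Shc1. No Ras or adaptor gene was called in LPS + Ska compared with LPS, although 5 passed on the adjusted p alone, all lower, Rasa1 among them at -0.54 (adjusted p = 0.0043). Of all genes tested, 28.6% passed it in either direction.

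Genes known as transcriptional output of ERK did not move as a block. Of 14 tested, LPS raised 6 (Phlda1, Myc, Etv1, Etv4, Ier3 and Fosl1) and lowered 2 (Fos and Fosb). Of all genes tested, LPS raised 12.7% and lowered 20.0%. LPS + Ska compared with LPS had 4 called lower and 0 higher, against 6.14% and 3.35% of all genes tested. Egr1 had 54.0, 71.9 and 94.9 TPM in DMSO, 83.5, 73.1 and 93.8 with LPS, and 31.7, 29.0 and 34.4 with LPS + Ska. Its LPS and DMSO columns overlapped and the LPS + Ska columns lay under both, at -1.37 from LPS in log2 (SE 0.18, adjusted p = 0.00086). Egr3 changed by -1.52 from LPS (adjusted p = 0.001) and Etv4 by -0.91 (adjusted p = 0.0065). Etv4 was low, at 3.44 ± 0.192 TPM in the LPS columns and 1.37 ± 0.317 TPM in the LPS + Ska columns (SD, n = 3 each), and a pseudocount of 0.1 raised its adjusted p to 0.052. Fosl1 changed by -1.01 (adjusted p = 0.035), with LPS + Ska columns of 11.2, 5.66 and 16.7 TPM. Its call was lost under 9 of 19 alternatives, among them the replicate block (adjusted p = 0.054), with a largest adjusted p of 0.10. Among them were the fits without DMSO replicate 6, without LPS + Ska replicate 5 and without any 1 of the LPS columns, where its change was -0.93 to -1.10. Fos fell with LPS from 233, 251 and 207 TPM to 48.5, 54.1 and 43.0 TPM, or -2.23 in log2 (adjusted p = 2.6e-06), and was at -0.22 from LPS with LPS + Ska (adjusted p = 0.30). Dusp1 and Fos, both immediate early genes, thus fell with LPS, and the difference between them with skatole was not tested. Other genes of this list did not share that fall, except Fosb. With LPS, Ier3, Myc and Fosl1 rose by 1.75, 1.86 and 1.47 in log2, and Egr1, Egr2, Egr3 and Ier2 were not called.

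**Figure D4:**
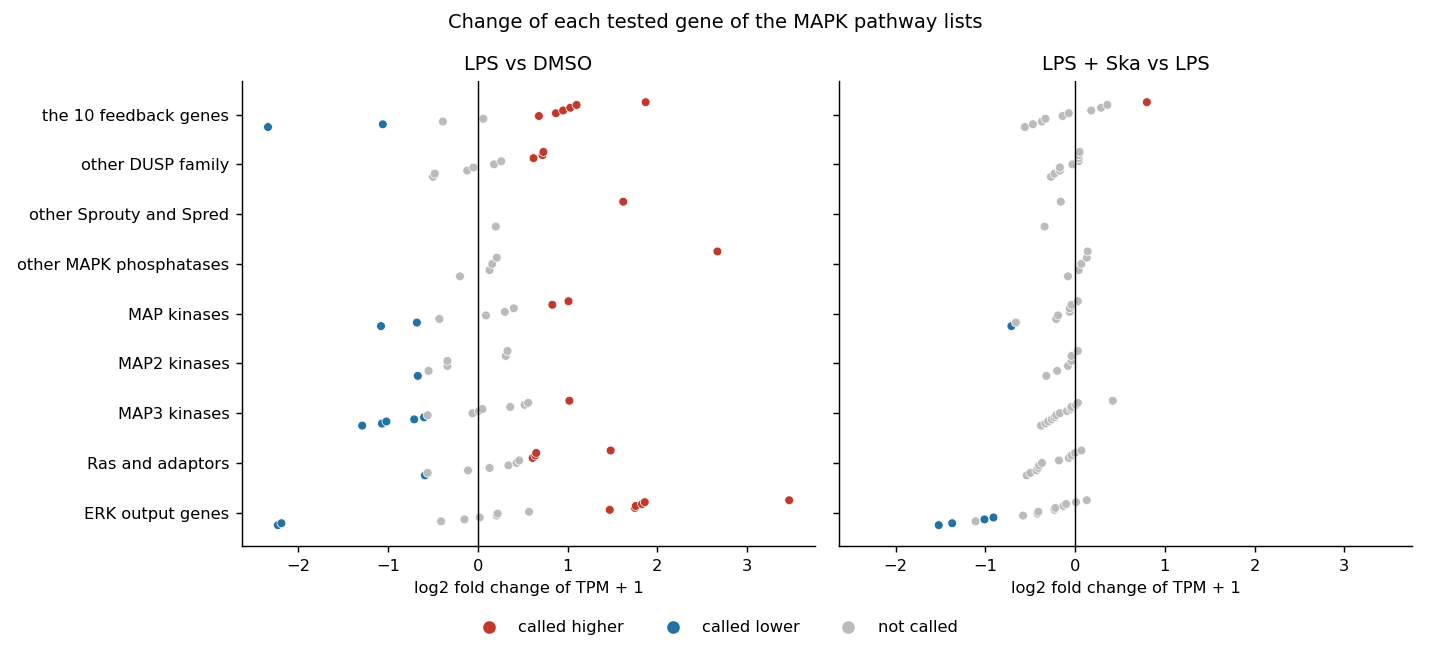
Log2 fold change of TPM + 1 (horizontal axes, the same in both panels) of each tested gene of the MAPK lists in LPS compared with DMSO and in LPS + Ska compared with LPS, colored by call. With LPS + Ska the called points are Dusp1, at 0.80 on the right, and Mapk11 and 4 ERK output genes on the left, between -0.71 and -1.52.

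The median log2 fold change over the 10 genes was 0.78 for LPS compared with DMSO and -0.10 for LPS + Ska compared with LPS, against -0.067 and -0.096 over all 12819 genes. For each of the 8 genes called with LPS, the gene nearest in its pair of changes (LPS from DMSO and LPS + Ska from LPS) was sought among all genes tested. Nearest to Dusp1 was Mpeg1, which codes for a pore-forming protein of macrophages, at -2.30 and 0.78, a distance of 0.049, and 3 genes lay within 0.1 of Dusp1. Nearest to Dusp5 was the transcription factor gene Myc, at 1.86 and -0.10, a distance of 0.041, again with 3 genes within 0.1. The nearest genes of the other 6 were Mir6963 for Dusp2, Slc25a28 for Dusp3, Gm6361 for Dusp6, Picalm for Dusp16, Gm11425 for Spry2 and Gm4332 for Spred1, at distances from 0.0058 to 0.047, with 8 to 98 genes within 0.1.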

How the data were processed

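Per the labels and the submitters' processing notes, reads of 9 RAW264.7 samples were processed with fastp 0.20.1, HISAT2 2.2.1 and StringTie 2.0 on mm10. The annotation was not given in the sources used here. The authors deposited TPM for 55401 Ensembl identifiers, of which 55141 matched a symbol in a reference table. The depth is unknown, so no counting interval could be given. In LPS and in LPS + Ska, replicate 5 is the average of replicates 6 and 7, a step the paper does not describe. The 2 values per gene that give these columns were recovered for an alternative.

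Fold changes came from limma 3.58.1 in R 4.3.3 (lmFit, eBayes with trend) on log2(TPM + 1) with all 9 columns, for 12819 genes whose mean TPM reached 1. Calls needed an adjusted p below 0.05 and a fold above 1.5 or below 0.67, the fold limits of the study. The fit was tested on simulated data. Gene positions are from GENCODE M21 (GRCm38) and upstream sequences from RefSeq. Markers, pathway lists, motifs and the 10 genes were chosen with earlier results of these data known. Named genes were all 10, the pathway genes called in LPS + Ska compared with LPS, up to 4 further genes per list with the largest LPS change, and the nearest gene of each of the 10 called with LPS. Genes named beyond this rule were chosen after their values were seen.

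After removal of the group means, columns with the same number correlated at 0.384, 0.151 and 0.128 between LPS and LPS + Ska and at -0.032 to 0.0801 for the other 6 pairs. The first 3 come from tied columns and are not separate observations. The numbers come from the labels, which do not say that equal numbers were paired across groups. A fit with the replicate number as a block was run beside the main one. Figures were drawn with matplotlib 3.10.9.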

Additional observations from a re-analysis of the deposited data

How the results depend on the processing

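Each value was recomputed with 10 other settings of the fit and with each of the 9 columns left out. These settings changed the pseudocount (0.1), the expression filter (none, or 5 TPM on average), the scaling (median-ratio, or TPM without mitochondrial and ribosomal protein genes), the fold limits, the columns entering the fit, the intensity trend, the replicate block and the tied columns (recovered values). Of 567 member values under these alternatives, 554 kept their direction and side of the threshold. The replicate block changed no call of the 10 genes, with 6 higher and 2 lower in LPS compared with DMSO, 1 and 0 in LPS + Ska compared with LPS, and 3 and 3 in LPS + Ska compared with DMSO. The adjusted p alone gave 2 higher and 3 lower genes in LPS + Ska compared with LPS and 6 higher in LPS + Ska compared with DMSO, since it drops the fold limits. Median-ratio scaling gave 5 higher in LPS + Ska compared with DMSO, adding Dusp2 and Dusp16, and took Dusp3 inside the fold limit. It also turned Spry2 in LPS + Ska compared with LPS from -0.07 to 0.02. This scaling moved the median of all genes by 0.09, 0.10 and 0.19 in LPS compared with DMSO, LPS + Ska compared with LPS and LPS + Ska compared with DMSO, and the calls in LPS + Ska compared with LPS from 429 higher and 787 lower to 595 and 540, and in LPS + Ska compared with DMSO from 1457 and 3243 to 2212 and 2246. With each column left out, the counts were 6 higher and 2 lower with LPS, 1 higher and 0 to 1 lower in LPS + Ska compared with LPS, and 3 to 4 higher and 3 lower in LPS + Ska compared with DMSO. In LPS and LPS + Ska the columns are tied, and those kept still fix the one left out. Such fits, which are also among the 567 values, remove no independent value there and cannot show dependence on a sample. Under the filter of 5 TPM, Dusp10 was not tested. The adjusted p of Dusp1 in LPS + Ska compared with LPS ranged from 0.00018 to 0.019. TPM keeps no depth, so the limit for Dusp10, Spry2 and other low genes is unknown.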
